A study of Mus musculus with 6 samples.

Results

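The cholesterol and fatty acid synthesis genes described here are 33 genes of the mouse: 18 enzymes that build cholesterol, 6 genes that sense or move sterols, and 9 enzymes that make, lengthen or desaturate fatty acids. The choice names the genes and uses no measured value, but it was made with earlier results of these data known. All 33 were found among the 12656 genes of the expression table, of which 11931 were abundant enough to be tested. RNA was sequenced from 4T1, a mammary carcinoma cell line of the BALB/c mouse labelled as triple-negative breast cancer. Cells had received LP-184, a prodrug that damages DNA, for 48 h (3 libraries) or the solvent DMSO (3 libraries), whose exposure time the sources used here do not give. They give no LP-184 concentration and no genetic change for these cells. Nothing says whether replicates came from separate cultures, so p-values reflect library-to-library spread alone, part or all of which could be technical. Levels are given as CPM, read counts scaled to a size set for each library. That size was 0.984 to 0.994 times the library's summed reads with DMSO and 1.007 to 1.016 times with LP-184. In bulk RNA, fewer cells expressing a gene and less RNA per cell cannot be told apart.

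Cells make cholesterol and fatty acids from the same acetyl-CoA. The transcription factors SREBP, encoded by Srebf1 and Srebf2, switch on the enzymes of both pathways. When sterols are low, the escort protein SCAP carries SREBP from the endoplasmic reticulum to the Golgi, where proteases release the active fragment, and when sterols are high the INSIG proteins hold SCAP and SREBP back. Proliferating tumour cells need both products for new membranes.

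The libraries held 18952393 to 22471753 reads with LP-184 and 18864368 to 21585323 with DMSO, and no member had fewer than 158 reads in any library. Counting error was small for members other than Fdps, which had the lowest counts and a standard error of 0.12 on the log2 scale. Pearson's r across genes was 0.994 to 0.995 for library pairs within a group and 0.914 to 0.917 for pairs between groups. The epithelial markers Epcam (464 and 361 CPM on average with LP-184 and with DMSO) and Krt18 (903 CPM with LP-184 and 1150 CPM with DMSO) were abundant. Of 19 markers of leukocytes, endothelium, fibroblasts and adipocytes, 3 were measured (Cd68, Cd79a and Pdgfra), and their summed level was 38.9 to 46.3 CPM with LP-184 and 16.9 to 17.3 CPM with DMSO, mostly from the macrophage marker Cd68 (31.3 CPM with LP-184 and 10.2 CPM with DMSO). The part of this in the results was not tested. Esr1, the oestrogen receptor gene, was at 0.307, 0.575 and 0.262 CPM with LP-184 and at 9.44, 11.7 and 10.4 CPM with DMSO, although the class is defined by the absence of that receptor.

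Most cholesterol enzymes (11 of 18) were lower with LP-184, each by less than 1.5-fold, and the other members moved both ways. The sterol dehydrogenase gene Nsdhl (fell by 31.5%) and the brake gene Insig2 (fell by 45.4%) were lower, whereas the fatty acid synthase gene Fasn was 1.73-fold higher and the transcription factor gene Srebf1 1.70-fold higher. Acaca, the acetyl-CoA carboxylase that feeds Fasn, was 2.82-fold lower, a direction that turned (log2 fold change 0.71) when a trend of fold change with gene length was removed. By limma with Benjamini-Hochberg adjustment over all genes tested, at an adjusted p under 0.05, 8 members rose, 18 fell and 7 missed the threshold. Among all genes tested 38.3% were higher and 40.0% lower, and 78.3% were called in either direction, beside 26 of the 33 members. The median log2 fold change was -0.18 over the members and -0.01 over all genes tested. With each library centred on its median, which moves all fold changes up by 0.087 at the median gene, 13 members were higher and 17 lower. Only Acaca, of the 33, changed by 2-fold or more, against 20.7% of all genes tested, and 5 members changed by 1.5-fold or more, against 41.2%. The libraries of the 2 groups did not overlap for 28 members, against 79.1% of all genes tested.

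**Figure D1:**
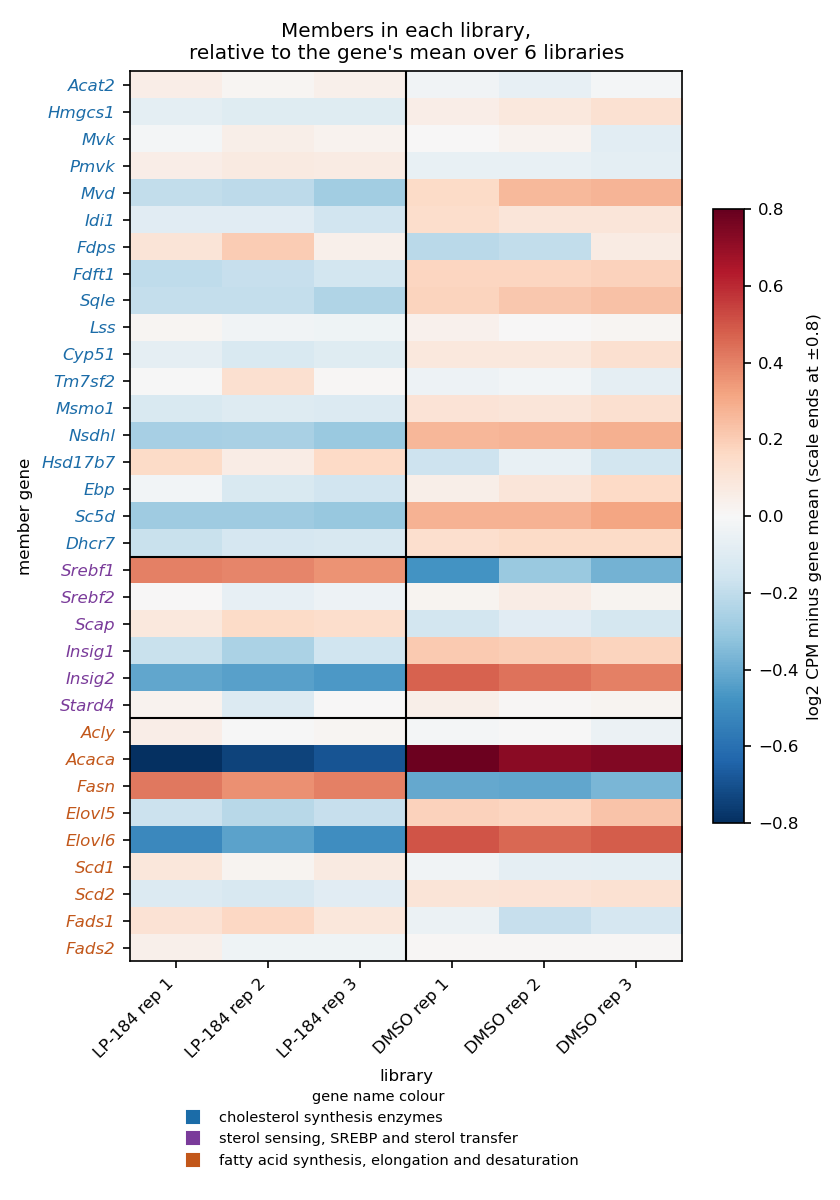
Level of each of the 33 members in each library (columns, LP-184 left and DMSO right), as log2 CPM minus the gene's mean over 6 libraries. Replicates of a group have like colours in nearly every row, Acaca and Elovl6 are low with LP-184, and Srebf1 and Fasn are high.

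**Figure D2:**
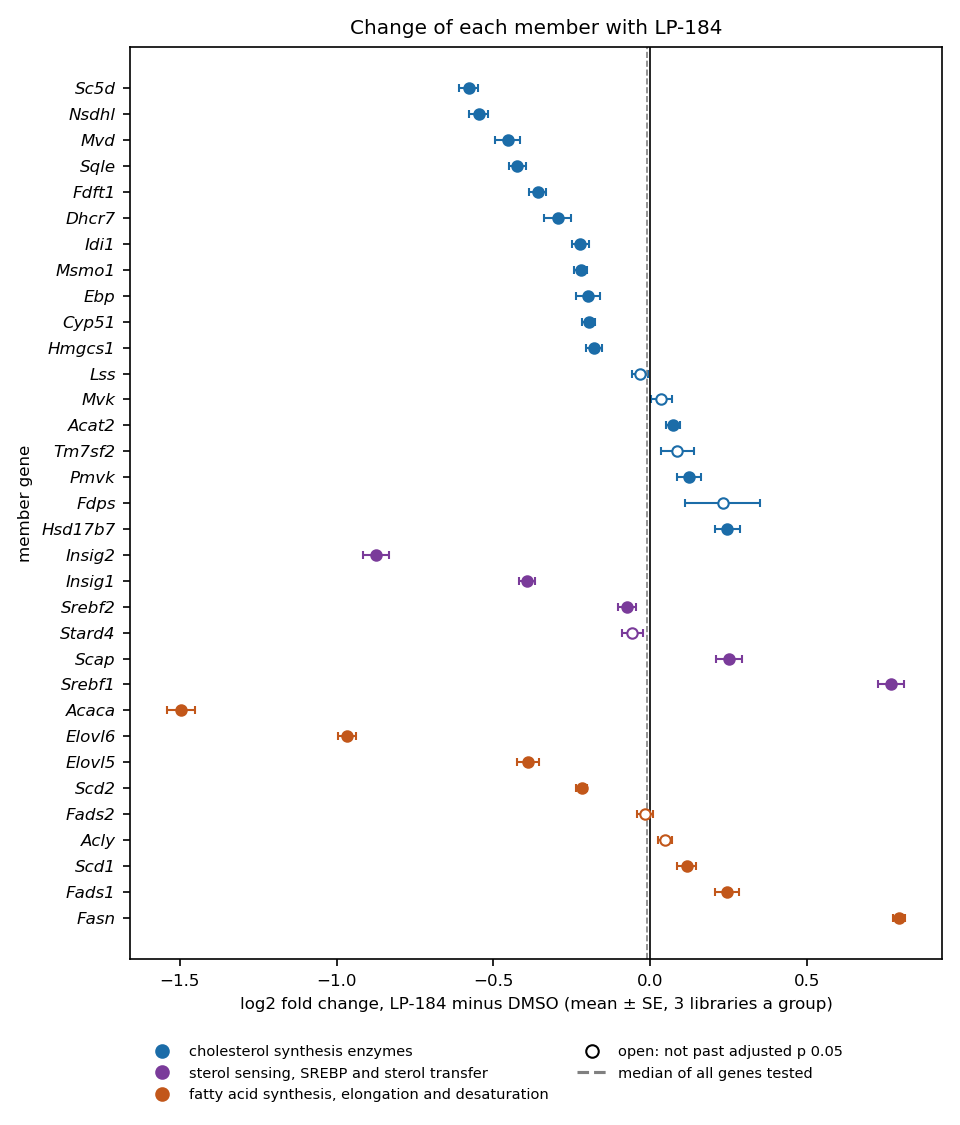
Log2 fold change (LP-184 minus DMSO) of each member with its standard error, 3 libraries a group, sorted within the 3 roles. Open circles did not pass an adjusted p of 0.05, and 11 of the 18 cholesterol enzymes lie left of 0 with filled circles.

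Promoter sequences are shown for 4 members that moved in either direction: Hmgcs1, an early cholesterol enzyme that was slightly lower, Sc5d, the cholesterol enzyme that fell the most, Insig1, an SREBP target that restrains SREBP, and Fasn, the member that rose the most. Each is the RefSeq window of 300 bases around the gene start in GRCm38.p6, written 5′ to 3′ along the gene's strand. Capitals mark the letters CCAAT on either strand, the recognition letters of the factor NF-Y, which works with SREBP, and, in Hmgcs1 alone of the 4, a match to TCACNCCAC, a form of the sterol regulatory element that SREBP binds. The windows are chr13:119690101-119690400 on the forward strand for Hmgcs1, chr9:42264251-42264550 on the reverse strand for Sc5d, chr5:28071162-28071461 on the forward strand for Insig1 and chr11:120824498-120824797 on the reverse strand for Fasn.

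Hmgcs1: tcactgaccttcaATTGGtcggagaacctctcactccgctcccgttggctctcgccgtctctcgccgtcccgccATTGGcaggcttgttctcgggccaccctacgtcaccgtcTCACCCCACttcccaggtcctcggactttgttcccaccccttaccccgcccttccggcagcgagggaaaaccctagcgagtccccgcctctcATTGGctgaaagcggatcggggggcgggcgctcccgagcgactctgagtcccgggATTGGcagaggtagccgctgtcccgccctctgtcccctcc

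Sc5d: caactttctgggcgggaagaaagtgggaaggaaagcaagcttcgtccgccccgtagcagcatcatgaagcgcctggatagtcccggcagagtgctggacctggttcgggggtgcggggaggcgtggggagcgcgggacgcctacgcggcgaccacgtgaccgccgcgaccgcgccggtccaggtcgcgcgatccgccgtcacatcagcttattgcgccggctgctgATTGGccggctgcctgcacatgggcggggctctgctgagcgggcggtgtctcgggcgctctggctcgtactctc

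Insig1: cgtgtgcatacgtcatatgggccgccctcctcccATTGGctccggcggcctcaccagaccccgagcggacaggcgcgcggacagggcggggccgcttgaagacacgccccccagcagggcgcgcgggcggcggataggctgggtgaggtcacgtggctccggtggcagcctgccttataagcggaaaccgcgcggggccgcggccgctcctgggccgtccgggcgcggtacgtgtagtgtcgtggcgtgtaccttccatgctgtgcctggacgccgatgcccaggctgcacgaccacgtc

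Fasn: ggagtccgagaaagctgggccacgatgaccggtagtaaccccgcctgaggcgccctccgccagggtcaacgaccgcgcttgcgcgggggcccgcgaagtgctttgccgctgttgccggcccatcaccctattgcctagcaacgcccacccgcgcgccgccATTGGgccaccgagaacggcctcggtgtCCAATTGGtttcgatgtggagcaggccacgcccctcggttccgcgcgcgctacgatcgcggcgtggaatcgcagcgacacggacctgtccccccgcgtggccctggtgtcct

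The Hmgcs1 window held 4 CCAAT matches, Sc5d and Insig1 held 1 each and Fasn held 3. A window was at hand for 26 of the 33 members, several of them with more than 1 start (34 windows in all). CCAAT was found on either strand in 22 of the 34 windows (64.7%), against 38.1% of the 11366 windows of genes tested and 37.4% of all 32851. Counted by gene, 21 of 26 members with a window had it, against 3866 of 8854 genes tested with a window. These were 13 of 15 lower members, 4 of 6 higher members and 4 of 5 that did not pass. The lower members without it were Acaca and Elovl6. TCACNCCAC was found in 1 of 34 windows (2.94%), against 1.08% of those of genes tested. GGGCGG, the recognition letters of SP1, stood in 73.5% of members' windows against 64.1%, and CANNTG, the E-box, in 79.4% against 62.8%. Several members have more than 1 window, which weighs on these shares. By gene, GGGCGG was in 21 of 26 members against 6307 of 8854 genes tested, and CANNTG in 19 of 26 against 5862 of 8854. All 4 were searched on both strands (CANNTG reads the same on both), and overlaps between motifs were kept. These matches describe letters, and do not show that a factor binds there.

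Of the 18 cholesterol enzymes, 11 were lower (61.1%, against 40.0% of all genes tested), 3 (16.7%) rose and 4 missed the threshold, and their median was -0.20 on the log2 scale. Their summed level was 3816, 3782 and 3772 CPM in the LP-184 libraries and 4316, 4326 and 4383 CPM in the DMSO libraries, 12.7% lower with LP-184 on average, and the groups did not overlap. The pathway opens in the cytosol with Acat2, the thiolase that joins acetyl-CoA units, which averaged 459 ± 6.46 CPM with LP-184 and 436 ± 7.23 CPM with DMSO (SD, n = 3 each). This small rise (log2 fold change 0.07 ± 0.02, SE) was called by limma (adjusted p = 0.0034) but not without the mean-variance trend (0.081), and 28.9% of the gene's 100-base windows are shared with the transcripts of other genes, among them the copy Acat3, so its read assignment is uncertain. Hmgcs1, the synthase that makes HMG-CoA, averaged 270 ± 2.58 CPM with LP-184 and 305 ± 7.71 CPM with DMSO, and fell by 11.6%, though 12.1% of its exon bases lie opposite another gene's exons.

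The mevalonate steps that follow moved unequally. The kinase gene Mvk was at 138, 144 and 142 CPM with LP-184 and at 140, 142 and 132 CPM with DMSO, and the groups overlapped. The next kinase, Pmvk, rose by 8.94%, a call lost with quantile normalization. Mvd, the decarboxylase that yields the isoprenoid unit, stood at 93.4, 93.3 and 88.4 CPM with LP-184 and at 119, 129 and 129 CPM with DMSO, without overlap (log2 fold change -0.45 ± 0.04, SE, limma adjusted p = 7.6e-13). Idi1, the isomerase that makes the second isoprenoid building block, fell by 14.3%, but 21.9% of its 100-base windows are shared with other annotated genes, so its read assignment is uncertain. Fdps, which joins these blocks into farnesyl diphosphate, averaged only 10.7 ± 0.627 CPM with LP-184 and 9.14 ± 1.03 CPM with DMSO (SD, n = 3 each), or 2.55 CPM per kb of annotated exon with LP-184 and 2.17 with DMSO. The next enzyme, Fdft1, had 51.5 CPM per kb with LP-184 and 66.0 with DMSO. Of the 100-base windows of Fdps, 21.4% occur in transcripts of other annotated genes and 26.7% of its exon bases overlap a gene on the same strand, so its level here is uncertain, and its difference did not pass (adjusted p = 0.078, or 0.028 without DMSO replicate 3).

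From squalene synthesis to the sterol ring, 3 of 5 genes fell, beside 40.0% of all genes tested. Fdft1, squalene synthase, fell by 22.0%, though 18.3% of its exon bases lie opposite exons of Ctsb, and the reads of this overlap cannot be told apart if counting ignored strand, on which the sources used here are silent. Sqle, squalene epoxidase and a rate-limiting enzyme of the pathway, was at 255, 254 and 245 CPM with LP-184 and at 329, 338 and 343 CPM with DMSO, a fall of 25.4% (log2 fold change -0.42 ± 0.03, SE). Lss, which closes the ring to lanosterol, differed by -0.03 ± 0.03 and did not pass (adjusted p = 0.29). Cyp51, the lanosterol demethylase, fell by 12.7% and remained abundant, at 514 ± 8.68 CPM with LP-184 and 589 ± 8.56 CPM with DMSO. Tm7sf2, a sterol reductase, was at 0.09 ± 0.05 and did not pass (adjusted p = 0.13), although its groups did not overlap.

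The enzymes that remove methyl groups from the sterol ring act in sequence, and their genes moved apart. The monooxygenase gene Msmo1 fell by 14.2%, to 618 ± 3.34 CPM with LP-184 against 721 ± 6.79 CPM with DMSO. Nsdhl, the dehydrogenase that acts next, was at 148, 149 and 145 CPM with LP-184 and at 214, 215 and 217 CPM with DMSO (log2 fold change -0.55 ± 0.03, SE, limma adjusted p = 2.6e-18). Hsd17b7, the reductase that completes the step, rose by 18.7%, to 112 ± 4.47 CPM with LP-184 against 94.6 ± 3.95 CPM with DMSO, the largest rise among the called cholesterol enzymes. Among the last steps, the isomerase gene Ebp fell by 12.9% and the final reductase gene Dhcr7 by 18.5%. Sc5d, the sterol desaturase, stood at 130, 129 and 128 CPM with LP-184 and at 191, 191 and 196 CPM with DMSO. That fall of 33.1% (log2 fold change -0.58 ± 0.03, SE, limma adjusted p = 1.8e-18) was the largest among the 18 enzymes.

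Of the 6 sensing genes, 2 rose, 3 fell and 1 missed the threshold, and their median was -0.06 on the log2 scale. Srebf1, which favours fatty acid genes (chromosome 11, 60199089 to 60222581 in GRCm38, reverse strand), was at 142, 141 and 138 CPM with LP-184 and at 76.8, 87.6 and 82.7 CPM with DMSO. Every LP-184 library lay above every DMSO library, and the groups differed by 0.77 ± 0.04 on the log2 scale (SE, limma adjusted p = 1.1e-18). The table does not separate the Srebf1 isoforms. Srebf2, which favours cholesterol genes (chromosome 15, 82147181 to 82205379, forward strand), was at 218, 207 and 212 CPM with LP-184 and at 221, 227 and 222 CPM with DMSO. Its fall of 4.95% (adjusted p = 0.018) was lost without LP-184 replicate 2 (adjusted p = 0.10) and without DMSO replicate 2 (0.076), and with median centring its fold change was 0.01. Within a library, Srebf1 lay 0.56 to 0.62 below Srebf2 on the log2 CPM scale with LP-184, and 1.37 to 1.52 below it with DMSO.

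Both INSIG genes fell. Insig1 (chromosome 5, 28071363 to 28078662, forward strand) was at 305, 290 and 309 CPM with LP-184 and at 399, 397 and 390 CPM with DMSO, a fall of 23.8% (log2 fold change -0.39 ± 0.03, SE, limma adjusted p = 6.0e-16). Insig2 (chromosome 1, 121304353 to 121332589, reverse strand) was at 54.8, 54.2 and 53.3 CPM with LP-184 and at 102, 98.7 and 97.2 CPM with DMSO (log2 fold change -0.87 ± 0.04, SE, limma adjusted p = 1.1e-19). No LP-184 library reached a DMSO library for either gene. Scap, the escort, rose by 19.0%, to 88.8 ± 2.49 CPM with LP-184 against 74.6 ± 1.55 CPM with DMSO, though 13.2% of its exon bases lie opposite another gene's exons. Stard4, a sterol transfer protein, differed by -0.06 ± 0.03 and did not pass (adjusted p = 0.14).

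**Figure D3:**
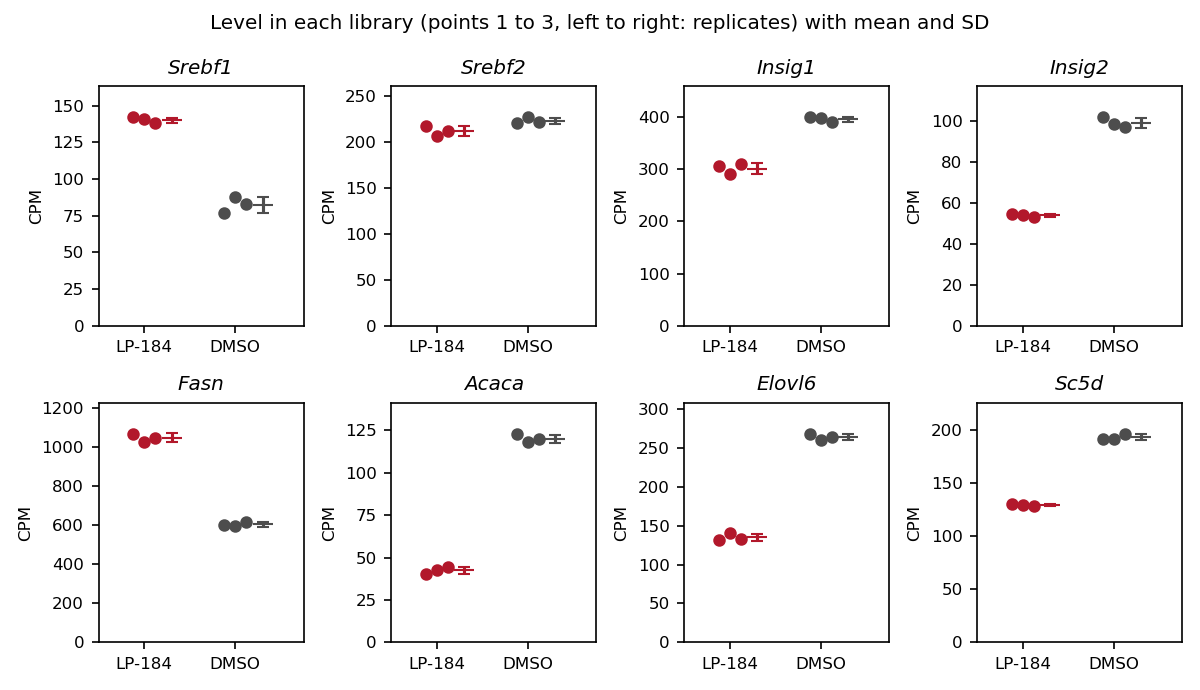
CPM of 8 members in each library (points, LP-184 left and DMSO right, axes from 0) with mean and SD beside them. For each of the 8 genes, no LP-184 library overlaps a DMSO library, and the gap is narrowest for Srebf2.

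Of the 9 fatty acid genes, 3 rose (33.3%), 4 fell (44.4%) and 2 missed the threshold, beside 38.3% higher and 40.0% lower of all genes tested. Their median was -0.02 on the log2 scale. Acly, the lyase that supplies cytosolic acetyl-CoA, was at 427 ± 9.53 CPM with LP-184 and 413 ± 6.64 CPM with DMSO (SD, n = 3 each), a difference that did not pass (adjusted p = 0.065) and is called at 0.13 with median centring. Acaca, the carboxylase that makes malonyl-CoA and commits it to fatty acids (chromosome 11, 84129672 to 84401651, forward strand), was at 40.3, 42.8 and 44.3 CPM with LP-184 and at 123, 118 and 120 CPM with DMSO. The groups lay far apart, and the log2 difference was -1.50 ± 0.04 (SE, limma adjusted p = 9.8e-26), against 0.71 with the length trend removed. Fasn, the synthase that uses that malonyl-CoA (chromosome 11, 120805846 to 120824547, reverse strand), was at 1070, 1030 and 1050 CPM with LP-184 and at 600, 595 and 619 CPM with DMSO, higher by 0.79 ± 0.02 on the log2 scale (SE, limma adjusted p = 1.9e-27). Fasn exceeded Acaca by 4.56 to 4.73 on the log2 CPM scale in LP-184 libraries and by 2.29 to 2.37 in DMSO libraries. Of the 100-base windows of Acaca, 23.7% are shared with other annotated genes, and none of those of Fasn.

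Both elongase genes fell, though with the length trend removed Elovl6 was at -0.06 and Elovl5 at 0.07. Elovl6, which lengthens palmitate, was at 131, 140 and 133 CPM with LP-184 and at 268, 260 and 264 CPM with DMSO, a difference of -0.97 ± 0.03 on the log2 scale (SE, limma adjusted p = 5.6e-25). Elovl5, which lengthens polyunsaturated fatty acids, fell by 23.6%, to 91.7 ± 1.49 CPM with LP-184 against 120 ± 2.39 CPM with DMSO. Desaturases moved by less and in both directions. Scd2 was the most abundant member per kb of annotated exon, at 253 ± 3.27 CPM per kb with LP-184 and 294 ± 2.03 CPM per kb with DMSO, and fell by 14.0%. Its close relative Scd1 rose by 8.44%, to 195 ± 4.81 CPM with LP-184 against 180 ± 3.32 CPM with DMSO, and 2.58% of its 100-base windows are shared with other annotated genes. Of the desaturases for polyunsaturated fatty acids, Fads1 rose by 18.5%, while Fads2 differed by -0.02 ± 0.03 (adjusted p = 0.54). The summed level of the 9 fatty acid genes was 3758, 3670 and 3734 CPM with LP-184 and 3695, 3672 and 3711 CPM with DMSO, and these overlapped.

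Longer genes had lower fold changes in these libraries, and the part of gene length in the members' results was not tested. Over 11462 genes with a span in the GENCODE annotation of GRCm38, Spearman's rho between span and log2 fold change was -0.50 and Pearson's r with log10 span was -0.48. Over the 33 members rho was -0.16 and r was -0.43. These are across genes, which share libraries and are not independent replicates. The members are mostly short, with a median span of 17.9 kb, and just Acaca (272 kb) and Elovl6 (106 kb) exceed 100 kb. The 1314 tested genes over 100 kb had a median log2 fold change of -1.41, beside -1.50 for Acaca and -0.97 for Elovl6. After a fitted length trend was removed, which shifts the median gene by -0.172, Acaca was at 0.71, Elovl6 at -0.06 and Elovl5, of 67.2 kb, at 0.07. The 3680 tested genes of 10 to 30 kb had a median of 0.21 and the 18 members of that size -0.04, and the 3234 genes under 10 kb had a median of 0.24 and the 6 members of that size -0.21. From 30 to 100 kb the order was the other way, with a median of -0.25 for 3234 tested genes and -0.07 for the 7 members.

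**Figure D4:**
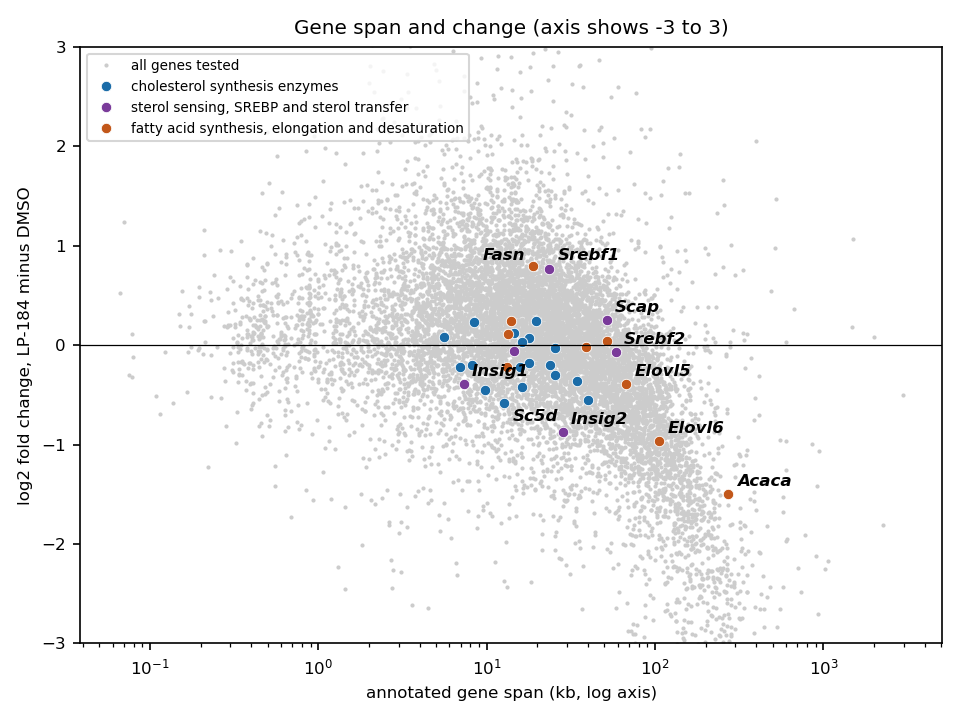
Log2 fold change (LP-184 minus DMSO) against annotated gene span in kb on a log axis, for all genes tested (grey) and the members (coloured by role). Acaca and Elovl6 lie within the descending cloud of long genes, and most cholesterol enzymes lie below 0 at spans where the cloud is centred above it.

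With the length trend removed, 16 of 18 cholesterol enzymes were lower and 0 higher by limma at an adjusted p under 0.05, against 38.9% lower and 35.3% higher over the 11462 genes, and their median was -0.39 beside -0.03. The enzymes that missed the threshold were Fdps (-0.14) and Hsd17b7 (0.01). Sc5d was then at -0.90, Mvd at -0.80 and Sqle at -0.72, while Acat2, Mvk, Pmvk and Tm7sf2 turned to between -0.27 and -0.19. Fasn (0.54) and Srebf1 (0.61) kept their rise, and Insig1 (-0.78) and Insig2 (-0.95) their fall.

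Other lipid genes were read from 6 lists, whose counts stand beside 38.3% higher and 40.0% lower over all genes tested. Of 16 other genes of cholesterol and isoprenoid synthesis, 7 were higher and 7 lower, with a median of 0.03. The largest changes were in enzymes that use isoprenoids: Icmt, which methylates prenylated proteins, rose by 1.20 ± 0.04 (log2, SE), and Pdss2, of the ubiquinone side chain, was at -2.24 ± 0.12 and Fntb, a farnesyltransferase subunit, at -1.39 ± 0.13. Pdss2 spans 243 kb and Fntb 156 kb, and removing the length trend put them at -0.17 and 0.01.

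Among 16 genes of SREBP processing and related regulators, 6 were higher and 7 lower, with a median of -0.06. Spring1, a cofactor of SREBP cleavage, rose to 53.3 ± 2.62 CPM with LP-184 against 22.8 ± 0.992 CPM with DMSO (log2 fold change 1.22 ± 0.06, SE). Nfya, a subunit of NF-Y, rose to 77.2 ± 4.15 CPM with LP-184 against 44.2 ± 3.26 CPM with DMSO, but the genes of the other NF-Y subunits did not rise. Mbtps1, the protease that makes the first cut in SREBP, fell to 127 ± 1.66 CPM with LP-184 against 214 ± 1.86 CPM with DMSO (log2 fold change -0.75 ± 0.03). Of 14 measured genes of cholesterol uptake, transport and efflux, 7 were higher and 6 lower, with a median of 0.23. Mylip, a ubiquitin ligase, rose to 21.4 ± 1.11 CPM with LP-184 against 2.65 ± 0.439 CPM with DMSO (log2 fold change 2.98 ± 0.14, SE, limma adjusted p = 6.0e-20), the largest rise in the 6 lists. Stard3, which moves sterol from late endosomes, rose by 0.96 ± 0.07, and the lipoprotein receptor gene Lrp8 was at -1.07 ± 0.05.

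Of 26 other genes of fatty acid synthesis and activation, 6 were higher and 15 lower, with a median of -0.17. Acsl4, which activates polyunsaturated fatty acids, fell to 245 ± 7.42 CPM with LP-184 against 581 ± 7.47 CPM with DMSO (log2 fold change -1.25 ± 0.02, SE). Its relative Acsl1 was at -1.27 ± 0.11, and Hsd17b12, the ketoreductase of elongation, at -0.89 ± 0.03. The last spans 125 kb, and removing the length trend put it at 0.21. Fatty acid oxidation was read from 24 genes, of which 10 rose and 9 fell, with a median of -0.04: the dehydrogenase gene Acadvl rose by 0.85 ± 0.07 and the thiolase gene Acaa2 by 0.83 ± 0.04, while the dehydrogenase gene Acadl was at -0.81 ± 0.04. Of 24 glycerolipid and lipid droplet genes, 10 rose and 7 fell, with a median of 0.02. Dgat2, which makes triglyceride, rose to 17.7 ± 1.82 CPM with LP-184 against 4.51 ± 0.56 CPM with DMSO (log2 fold change 1.95 ± 0.13, SE), and the acyltransferase genes Agpat4 and Gpat3 were at -1.33 ± 0.12 and -1.28 ± 0.14. Agpat4 spans 101 kb and stood at -0.49 once the length trend was removed. Of the 6 lists, fatty acid synthesis and activation had the smallest share that rose (23.1%) and the largest that fell (57.7%), beside 38.3% and 40.0% of all genes tested. With the length trend removed, 12 of its 26 genes were higher and 11 lower, and the median was 0.04.

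**Figure D5:**
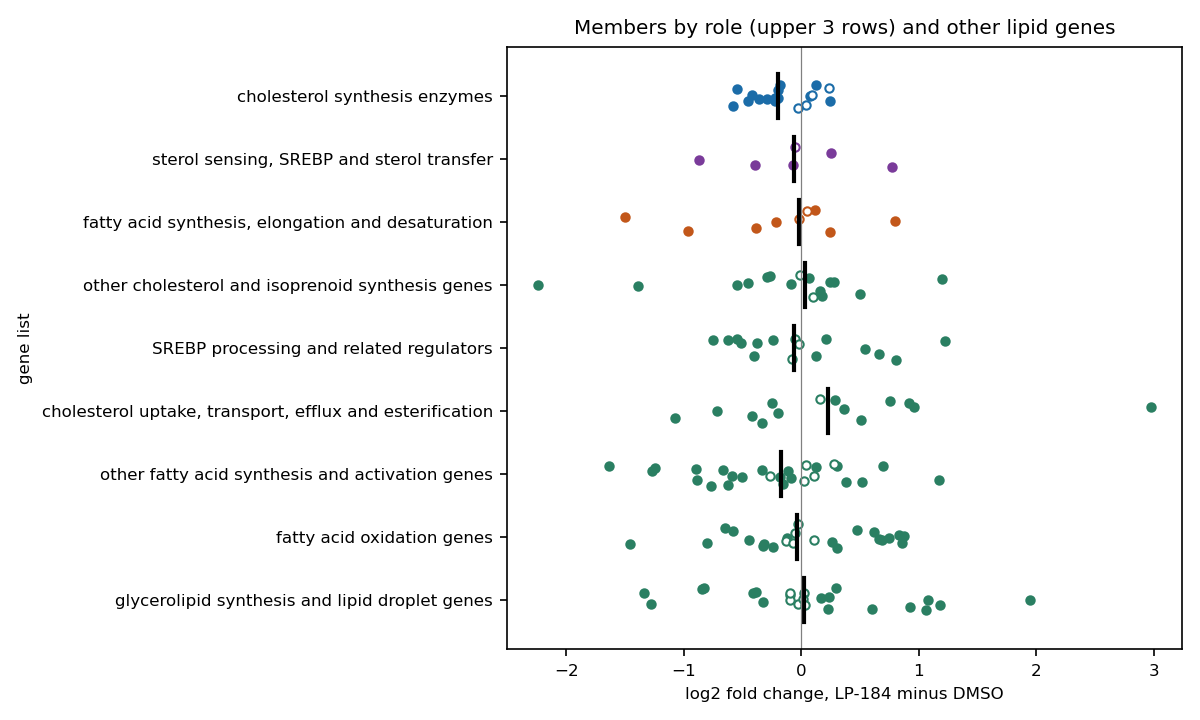
Log2 fold change (LP-184 minus DMSO) of single genes in 9 lists, the members by role in the upper 3 rows and the 6 other lipid lists below, with black bars at the medians. Filled points passed an adjusted p of 0.05, the cholesterol enzymes span -0.58 to 0.25, and Mylip lies farthest right at 2.98.

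In the authors' deposited table of the same comparison, 8 members were higher and 18 lower at an adjusted p under 0.05, the same calls for all 33, with log2 fold changes that differed from those here by at most 0.004.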

How the data were processed

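The authors deposited log2 CPM, normalised by library size with a small prior, for 12656 genes in 6 libraries of polyadenylated RNA, and a table of log2 fold changes, p-values and adjusted p-values of their own, made by a test that the sources used here do not name. The submitters' processing notes name mm10 and hg38 as builds and, among the tools, STAR 2.7, Subread 2.0, featureCounts, fastp and edgeR, without roles. The table's control columns carry no DMSO label and were matched to the DMSO replicates by number, DMSO being the series' sole control for these cells. With the prior removed, 100% of entries came out as whole reads, to within 0.01 reads. CPM values printed here have the prior removed.

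Genes reaching a log2 CPM of 0 in 3 libraries or more were tested with limma 3.58.1 in R 4.3.3 (two-sided moderated test of 2 groups, spread allowed to vary with level), adjusted by Benjamini-Hochberg over 11931 genes. Fold changes are on the log2 scale of the deposited values, where a gene with 0 reads stands at -3.34, so changes of low genes are understated. A permutation test of 3 against 3 cannot go below p of 0.10 and was not used. Spans, exon lengths and shared or overlapping sequence come from GENCODE M21 of GRCm38 (95.9% of symbols matched 1 gene), with exon length the union over all transcripts. The length trend was a loess curve (span 0.3). On simulated counts for 11666 genes, this comparison recovered 89.1% of simulated 1.5-fold and 96.8% of simulated 2-fold changes, and 4.7% of its calls were false. The simulation changed few genes, with a single assumed spread and no length trend, whereas 78.3% of genes tested were called in the data. Changes under 1.5-fold, the size seen in most members, were not simulated. Python 3.11.15 was used for summaries.

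The members, lists and tests were chosen with earlier results of these data known. All members are named, and in each other list the 3 called genes with the largest change and a mean log2 CPM of 2 or more in the higher group. 15 alternatives were run: other scalings, pseudocounts and filters, a fit without the trend, each library left out, the replicate block, voom on the recovered reads and the length trend removed. The human and tumour single-cell experiments of the series were not analysed here. Some single genes of the lists are counted but not reported here by name.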

Additional observations from a re-analysis of the deposited data

How the results depend on the processing

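Over 15 alternatives, counts of calls and medians of lists stayed within 1.5 times or within the spread between libraries in 376 of the cases, moved further in 11 and turned sign in 3. Median centring gave 13 higher members, 6 higher cholesterol enzymes and 5 higher fatty acid genes, and medians of -0.09 for the members, -0.11 for cholesterol enzymes, 0.02 for sensing genes and 0.07 for fatty acid genes, the last pair with the sign turned. Quantile normalization gave a median of -0.11 for the members. With the length trend removed, 0 cholesterol enzymes (16 lower), 4 other isoprenoid genes and 12 other fatty acid genes were higher, and the medians were -0.26 for the members, -0.39 for cholesterol enzymes and 0.02 for fatty acid genes.

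Among the genes named in the text, some turned sign under 2 alternatives. With median centring these were Lss (0.06), Srebf2 (0.01), Stard4 (0.03) and Fads2 (0.07). With the length trend removed they were Acat2 (-0.20), Mvk (-0.26), Pmvk (-0.19), Fdps (-0.14), Tm7sf2 (-0.27), Srebf2 (0.25), Acaca (0.71), Elovl5 (0.07), Scd1 (-0.20), Fads1 (-0.07), Fads2 (0.02), Fntb (0.01) and Hsd17b12 (0.21). The cause was not tested.

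The values gave no sign that replicate numbers pair the libraries, though they cannot show how the cultures were set up. Deviations of same-numbered libraries correlated at -0.018 to -0.006, and those of differently numbered libraries at -0.023 to 0.034. With the replicate block, 8 members were higher and 18 lower, and no member changed its call.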
